A study of Mus musculus with 10 samples.

Results

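The genes described here encode the proteins of the cytosolic ribosome and the factors that carry translation elongation. They were taken by symbol from a table of 13299 genes: symbols made of Rpl or Rps and a digit, Rplp0, Rplp1, Rplp2, Rpsa, and every symbol beginning with Eef. Of 118 symbols so matched, 10 pseudogene rows and 7 S6 kinase genes were left out, which gave 101 genes. They comprised 46 proteins of the 60S subunit, 31 proteins of the 40S subunit, 9 paralogues or retrogenes of such proteins, 6 elongation factors, 8 genes named for elongation factors that are mostly enzymes acting on them, and Rps19bp1, which is named after a ribosomal protein without being one.

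Whole kidneys were compared between 5 Rragc S74N/+ mice and 5 Rragc +/+ mice, all aged 1.5 years. Rragc encodes RagC, a small GTPase that together with RagA passes nutrient sufficiency to the kinase complex mTORC1 at the lysosome, and the S74N allele, an active form, was carried as a heterozygous knock-in by all cells of the mouse. Expression was read by 3′ mRNA sequencing, in which each read stands for the 3′ end of a polyadenylated transcript, so that what was measured is the level of mRNA and not its translation. Whole-kidney RNA mixes tubules, vessels, stroma and infiltrating leukocytes, and fewer cells of a type cannot be told apart from less RNA per cell.

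A ribosome joins a small subunit, which decodes the mRNA, to a large subunit, which forms peptide bonds, and each combines ribosomal RNA with its own set of proteins. eEF1A, with the exchange complex eEF1B, brings aminoacyl-tRNA to the ribosome, and eEF2 moves the ribosome along by a codon. The mRNAs of most of these proteins begin with a C followed by a run of pyrimidines, the terminal oligopyrimidine (TOP) tract, and mTORC1 governs how such mRNAs are translated and stored through LARP1 and the 4E-BP proteins.

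The first bases of the genes are shown because this tract is what their mRNAs are known to share. In the RefSeq promoter table of build GRCm38.p6, 76 of the 101 genes had an entry. Each line gives 10 bases before and 20 bases from the annotated start, 5′ to 3′ on the strand of the gene, for genes on which the results below turn, with capitals marking a C followed by at least 4 bases that are each C or T and beginning within 5 bases of the start.
Rpl39: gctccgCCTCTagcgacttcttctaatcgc
Rps2: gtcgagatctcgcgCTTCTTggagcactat
Rpl7a: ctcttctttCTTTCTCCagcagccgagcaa
Rps18: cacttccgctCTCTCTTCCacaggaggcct
Rps6: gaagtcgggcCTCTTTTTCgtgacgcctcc
Rpl14: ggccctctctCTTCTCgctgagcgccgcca
Eef1a1: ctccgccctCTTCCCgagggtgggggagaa
Rps28: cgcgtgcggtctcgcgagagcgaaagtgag
Rpl4: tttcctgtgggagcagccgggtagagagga
Eef2: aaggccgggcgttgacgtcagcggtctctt
These windows lie at chrX:37085203-37085232 (minus strand) for Rpl39, chr17:24720053-24720082 (plus strand) for Rps2, chr2:26910797-26910826 (plus strand) for Rpl7a, chr17:33955646-33955675 (minus strand) for Rps18 and chr4:86857348-86857377 (minus strand) for Rps6. The others lie at chr9:120571507-120571536 (plus strand) for Rpl14, chr9:78481705-78481734 (minus strand) for Eef1a1, chr17:33824543-33824572 (minus strand) for Rps28, chr9:64173377-64173406 (plus strand) for Rpl4 and chr10:81176621-81176650 (plus strand) for Eef2. The tract was found on the strand of the gene in 32 of the 76 genes (42.1%, exact 95% interval 30.9% to 54.0%), in 2313 of 9790 other tested genes (23.6%) and in 21.2% of all 27025 genes of the table. Among the ribosomal proteins it was in 27 of 57 (47.4%), among the paralogues in 4 of 8 and among the elongation factors in 1 of 4. Among the genes named for elongation factors that are mostly enzymes acting on them it was in 0 of 6. A window without it, such as those of Rps28, Rpl4 and Eef2, says only that these letters are not within reach of the annotated start. The files use build GRCm39, and no coordinate was carried over between the builds.

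Depth in the 8 kidneys whose whole reads could be recovered ran from 4488493 to 5797251 reads. Tubule markers matched the labelled tissue, with Slc34a1, Lrp2 and Umod all abundant, although Umod fell in S74N/+ kidneys (log2 difference -1.55). Among the libraries, Rragc S74N/+ replicate 1 stood apart, for the ribosomal proteins and over all tested genes. The standard deviation of its 77 deviations from each gene's mean over the 10 kidneys was 0.66 on the log2 scale, against 0.11 to 0.37 in the other 9 kidneys. Over all tested genes the standard deviation was 0.74 in that kidney, against 0.39 to 0.53 in the other 9. Rragc S74N/+ replicate 1 was the lowest of the 10 kidneys for 36 of the 77 genes and the highest for 24. Rragc +/+ replicate 2 came next with a standard deviation of 0.37, and was the highest for 29 genes. Results are therefore given with and without Rragc S74N/+ replicate 1, and, where it matters, without both. The sample numbers in the titles fell below 200 for replicates 1 to 3 of each genotype and above 200 for replicates 4 and 5. The labels do not say what the numbers stand for.

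**Figure D1:**
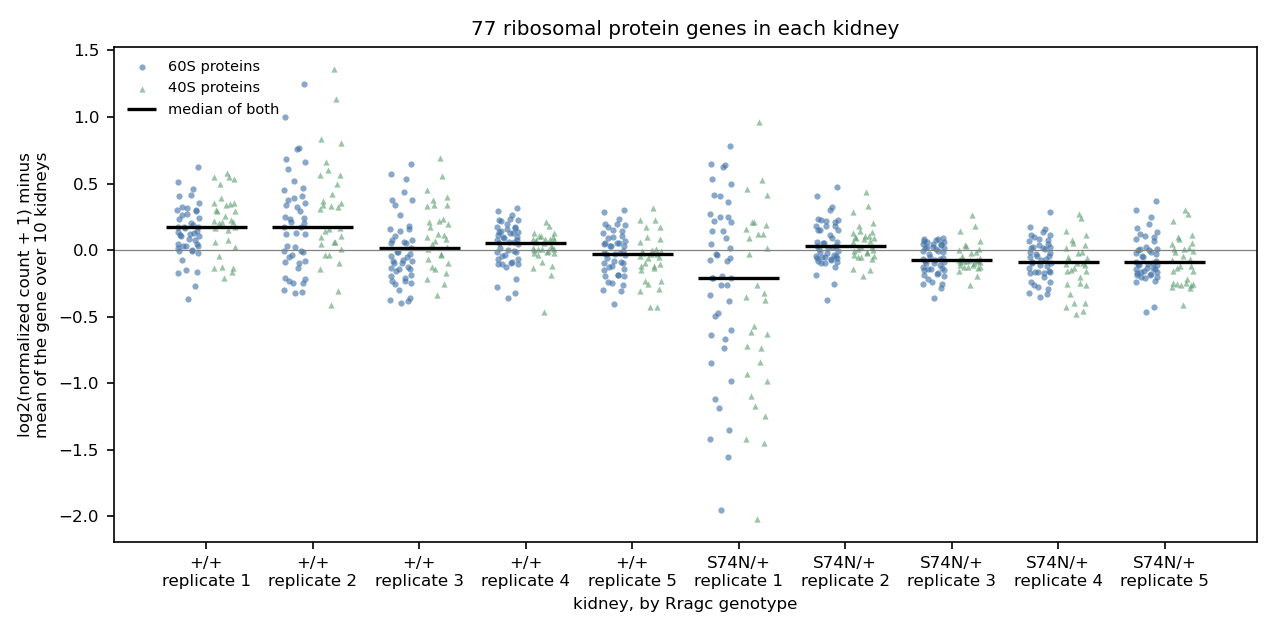
Each point is a ribosomal protein gene in a kidney, as log2(normalized count + 1) minus the mean of that gene over the 10 kidneys, with 60S proteins as circles, 40S proteins as triangles and the median of the 77 genes as a bar. Rragc S74N/+ replicate 1 spreads from -2.02 for Rps2 to 0.96 for Rps20, and the other S74N/+ kidneys stay within 0.5 of the gene means.

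The question was whether mRNAs for the translation apparatus differ in old kidney when RagC is in an active form. A single gene of the 101, Rpl39, fell in Rragc S74N/+ kidneys and none rose, by limma on log2(normalized count + 1) with Benjamini-Hochberg adjustment over 13236 genes at a threshold of 0.05. Over all tested genes, 3.45% rose and 2.58% fell by the same rule. At an unadjusted p under 0.05, 25 of the 101 genes were lower and 4 were higher, beside 12.8% lower and 12.6% higher over all tested genes. The 5 S74N/+ values lay entirely below the 5 +/+ values for 6 genes (Rpl39, Rpl7a, Rps3, Rpl18, Rps18 and Rplp0) and entirely above them for Rpl7 alone, where 4.01% and 4.15% of all tested genes were separated in these directions. All but Rpl39 and Rpl7 of these were named after their values were seen. Between genotypes, the median log2 difference was -0.15 over the 77 ribosomal proteins and -0.01 over all tested genes, and 53 of the 77 lay below 0. For 84 of the 101 genes the 95% confidence interval of the difference stayed within 1 log2 unit of 0, and for 48 within 0.5.

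Without Rragc S74N/+ replicate 1, limma called 4 of the 101 genes lower (Rpl39, Rpl7a, Rps2 and Rps28) and Rpl5 higher, beside 3.2% lower and 3.6% higher over all tested genes, and the median of the ribosomal proteins was -0.11. DESeq2 on the reads of the 8 kidneys called 7 genes lower (Rpl39, Rpl7a, Rps18, Rps21, Rps27, Rps28 and Rps29) and 2 higher (Rpl4 and Rps4x), beside 4.84% lower and 5.76% higher over all tested genes. edgeR on the same reads called Rpl39 and Rps28 lower and none higher, beside 2.55% lower and 3.88% higher over all tested genes. These 8 kidneys lack Rragc S74N/+ replicate 3 and Rragc +/+ replicate 5. The latter was the lowest control for Rpl39, Rps21, Rps27, Rps28 and Rps29, so the set of kidneys differs as well as the model. On the same 8 kidneys limma called Rpl39 and Rps28 lower, beside 6.30% of all tested genes called. Without both Rragc S74N/+ replicate 1 and Rragc +/+ replicate 2, Rpl39 was the only one of the 101 genes called, beside 1.75% lower and 2.02% higher over all tested genes, and the median of the ribosomal proteins was -0.10. Scaling all kidneys to equal totals moved the median of all tested genes by 0.077, to 0.06, and put that of the ribosomal proteins at -0.07. None of the 101 genes was called then, beside 7.12% of all tested genes. Within the number ranges of the titles, the median of the ribosomal proteins was -0.21 below 200 and -0.10 above. None of the 101 genes was called in either, beside 0.35% of all tested genes below 200 and 4.66% above.

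**Figure D2:**
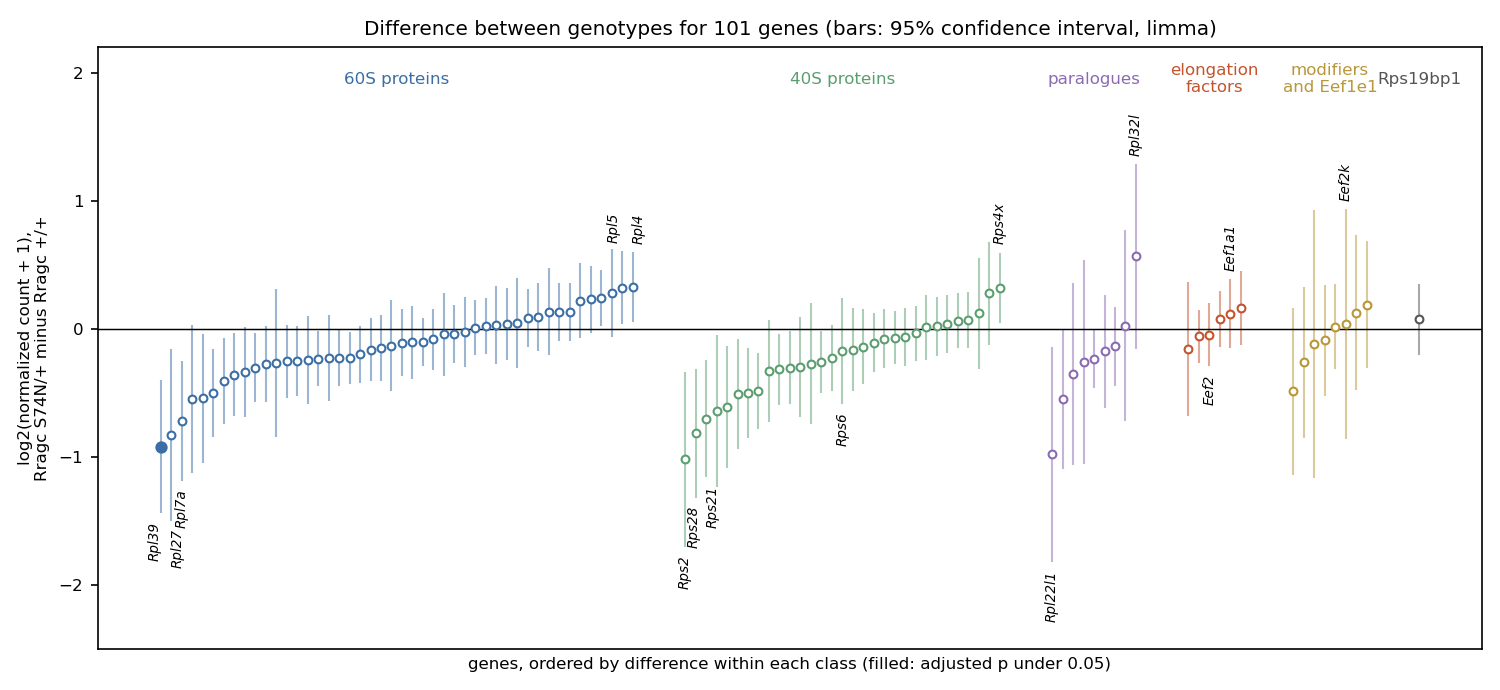
Each point is the log2 difference of a gene between Rragc S74N/+ and Rragc +/+ kidneys (5 per group), ordered within its class, with its 95% confidence interval from limma. The only filled point, an adjusted p under 0.05, is Rpl39 at -0.92, and the 6 elongation factors lie between -0.16 and 0.16.

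Among the 60S proteins, Rpl39, a short basic protein that lines the exit tunnel for the growing peptide, had normalized counts of 434, 896, 592, 443 and 371 in the Rragc +/+ kidneys and of 147, 331, 335, 344 and 273 in the Rragc S74N/+ kidneys. The groups did not overlap, with Rragc +/+ replicate 2 far above its group and Rragc S74N/+ replicate 1 far below the rest. The means were 547 ± 211 and 286 ± 82.4 (SD, n = 5), a log2 difference of -0.92 ± 0.25 (SE; 95% interval -1.44 to -0.40) with a limma adjusted p of 0.0374. Leaving out Rragc S74N/+ replicate 1 gave a difference of -0.70 and an adjusted p of 0.0247. The call was lost without Rragc +/+ replicate 1 (limma adjusted p = 0.0646), replicate 2 (0.105), replicate 3 (0.0737) or replicate 4 (0.0599), and without Rragc S74N/+ replicate 5 (0.0763). The difference was -1.27 among the kidneys numbered below 200 and -0.40 among those above, and neither passed alone.

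Rpl7a had counts of 748, 949, 758, 677 and 738 in +/+ kidneys and 224, 461, 598, 618 and 579 in S74N/+ kidneys. The groups did not overlap, and S74N/+ replicate 1 was again far below the rest. The log2 difference was -0.72 ± 0.22 (SE), with a limma adjusted p of 0.0638 over all kidneys and 0.0237 without S74N/+ replicate 1. Rpl27 had counts of 684, 958, 649.9, 559 and 448 and 123, 519.5, 495, 392 and 479.9, a difference of -0.83 ± 0.32 (SE) with an adjusted p of 0.12 by limma, and its groups overlapped. For Rpl27 the difference was -0.45 without S74N/+ replicate 1. Rpl18 (651 ± 47.2 and 471 ± 113, SD, n = 5) and Rplp0, a stalk protein (2791 ± 209 and 2379 ± 102), had separate groups with differences of -0.50 and -0.23, which were -0.32 and -0.20 without S74N/+ replicate 1.

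At the other end of the 60S set stood Rpl4, Rpl5, Rpl14 and Rpl7. Rpl4, a core protein whose long arm reaches the exit tunnel, had counts of 499, 514, 611, 601 and 666 in +/+ and 856, 669, 579.9, 706 and 831 in S74N/+ kidneys, with 4 of 5 S74N/+ kidneys above all controls. Its log2 difference was 0.33 ± 0.13 (SE; 95% interval 0.05 to 0.60; limma adjusted p = 0.129), and 0.26 without S74N/+ replicate 1. Rpl5, which with Rpl11 and 5S RNA forms the particle that binds Mdm2, had counts of 192, 224, 217, 192 and 217 and 200.5, 324, 242, 283 and 266. Again 4 of 5 S74N/+ kidneys were above all controls, and the exception was replicate 1. The difference was 0.32 ± 0.13 (SE; limma adjusted p = 0.152) and became 0.41 without that kidney, with an adjusted p of 0.0475. Rpl11, its partner, had a difference of -0.55 ± 0.27 (SE; 95% interval -1.13 to 0.02), and one of -0.23 without S74N/+ replicate 1. Rpl14 had counts of 1749, 1572, 1493, 2039 and 2009 and 3334, 1867, 1696, 2182 and 1938, overlapping groups and a difference of 0.28 ± 0.16 (SE) that was 0.12 without S74N/+ replicate 1. Rpl7 had separate groups, 904, 766, 858, 900.4 and 754 against 938, 1030.3, 935, 923 and 1117, and a difference of 0.24 ± 0.10 (SE; limma adjusted p = 0.159) that was 0.26 without S74N/+ replicate 1. Over the 46 genes of the 60S subunit, 30 lay below 0 and the median was -0.12.

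**Figure D3:**
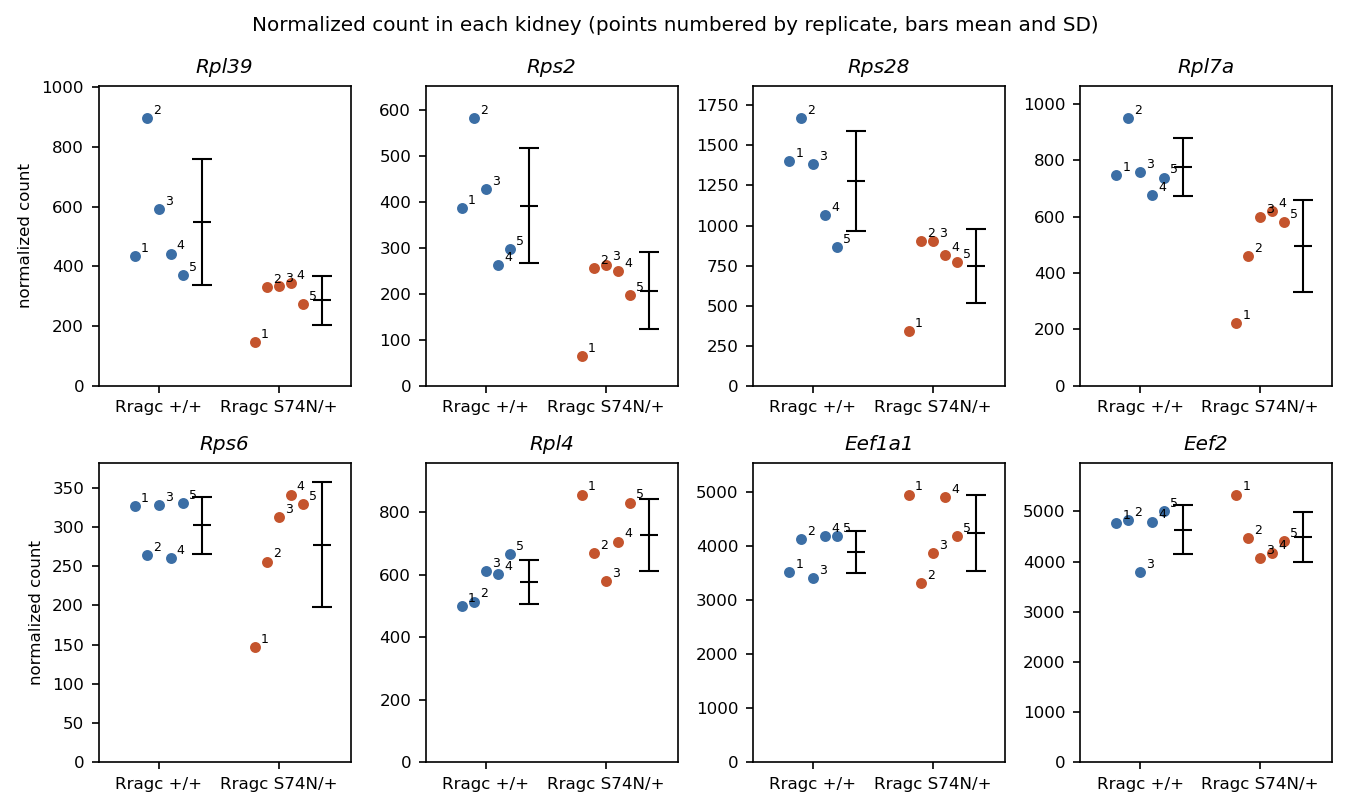
Normalized count of 8 genes in each kidney, with Rragc +/+ in blue, Rragc S74N/+ in orange, points numbered by replicate and bars for mean and SD (n = 5); every axis starts at 0. Rpl39 and Rpl7a show no overlap between genotypes, S74N/+ replicate 1 is lowest for Rpl39, Rps2, Rps28, Rpl7a and Rps6, and it is highest for Rpl4, Eef1a1 and Eef2.

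Among the 40S proteins none passed the limma test. Rps2, which lines the mRNA entry channel, had the largest difference of the 101 genes. Its counts were 387, 583, 428, 264 and 298 in +/+ kidneys and 64.3, 257, 264, 251 and 198 in S74N/+ kidneys. Of the S74N/+ kidneys 4 lay below all controls, replicate 3 lay just above the lowest control, and replicate 1 was far below all other kidneys. The log2 difference was -1.02 ± 0.32 (SE; 95% interval -1.70 to -0.34; limma adjusted p = 0.0698). It became -0.64 without S74N/+ replicate 1 (adjusted p = 0.0312) and -0.49 without both that kidney and Rragc +/+ replicate 2 (0.081).

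Rps28, a small protein near the mRNA exit, had counts of 1402, 1669.7, 1383, 1066 and 866 in +/+ and 342, 904, 902, 816 and 774 in S74N/+ kidneys. The groups overlapped only through Rragc +/+ replicate 5, which lay under S74N/+ replicates 2 and 3. The log2 difference was -0.82 ± 0.24 (SE) with a limma adjusted p of 0.0531, and -0.55 (0.0247) without S74N/+ replicate 1. Rps18 was also close to the threshold, with separate groups, means of 679.8 ± 85.1 and 489 ± 87.8 (SD, n = 5), a difference of -0.49 ± 0.14 (SE) and a limma adjusted p of 0.0518. Unlike Rps28, it did not pass without S74N/+ replicate 1 (-0.36, limma adjusted p = 0.0525). Rps3, which sits at the entry of the mRNA channel, had separate groups too, with means of 765 ± 99.2 and 529 ± 170.5 and a difference of -0.61 ± 0.23 (SE; limma adjusted p = 0.11) that was -0.33 without S74N/+ replicate 1.

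Rps6, the protein that S6 kinases phosphorylate downstream of mTORC1, had counts of 327, 264, 328, 260.2 and 330.3 in +/+ kidneys and 147, 256, 313, 341 and 329 in S74N/+ kidneys. The groups overlapped, and outside replicate 1 the S74N/+ values fell in and around the control range. The log2 difference was -0.17 ± 0.19 (SE; 95% interval -0.59 to 0.24; limma adjusted p = 0.615), and it was 0.04 without that kidney. Rps4x, an X-linked 40S protein, had counts of 749.5, 700.1, 725, 852 and 862 and 1248, 922, 755, 936 and 1042, with 4 of 5 S74N/+ kidneys above all controls and a difference of 0.32 ± 0.13 (SE; limma adjusted p = 0.137). S74N/+ replicate 1 was the highest kidney for Rps4x, and without it the difference was 0.23. Over the 31 genes of the 40S subunit, 23 lay below 0 and the median was -0.17.

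The differences of the ribosomal proteins varied with the length of the coding sequence, a relation chosen after the data were seen and given as a description. Coding lengths were taken from GENCODE, with a value for all 77 genes. The 9 genes with at most 300 coding bases had a median log2 difference of -0.54, the 46 genes with 301 to 600 bases one of -0.14, the 19 genes with 601 to 900 bases one of -0.04 and the 3 longer genes one of 0.13. The 9 short genes were Rpl39, Rps28, Rps21, Rps27, Rpl37, Rps29, Rpl37a, Rpl38 and Rpl41, with differences of -0.92, -0.82, -0.70, -0.64, -0.54, -0.51, -0.25, -0.23 and 0.04 in that order. Rpl41, the shortest of them, was thus outside the pattern.

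Other tested genes with a coding length showed medians of -0.21, -0.15, -0.09 and 0.02 over the same 4 length ranges. Spearman's rho between difference and coding length was 0.32 over the 77 ribosomal proteins and 0.23 over 11658 other genes. Genes of a kidney share its library, so these are descriptions. Without S74N/+ replicate 1 rho was 0.39 and the median of the 9 short genes was -0.36. In single kidneys the median deviation of the 9 short genes ran from -0.11 to 0.77 in the +/+ group and from -1.10 to 0.02 in the S74N/+ group, and the median of the 22 genes over 600 bases stayed between -0.07 and 0.08 in all 10.

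**Figure D4:**
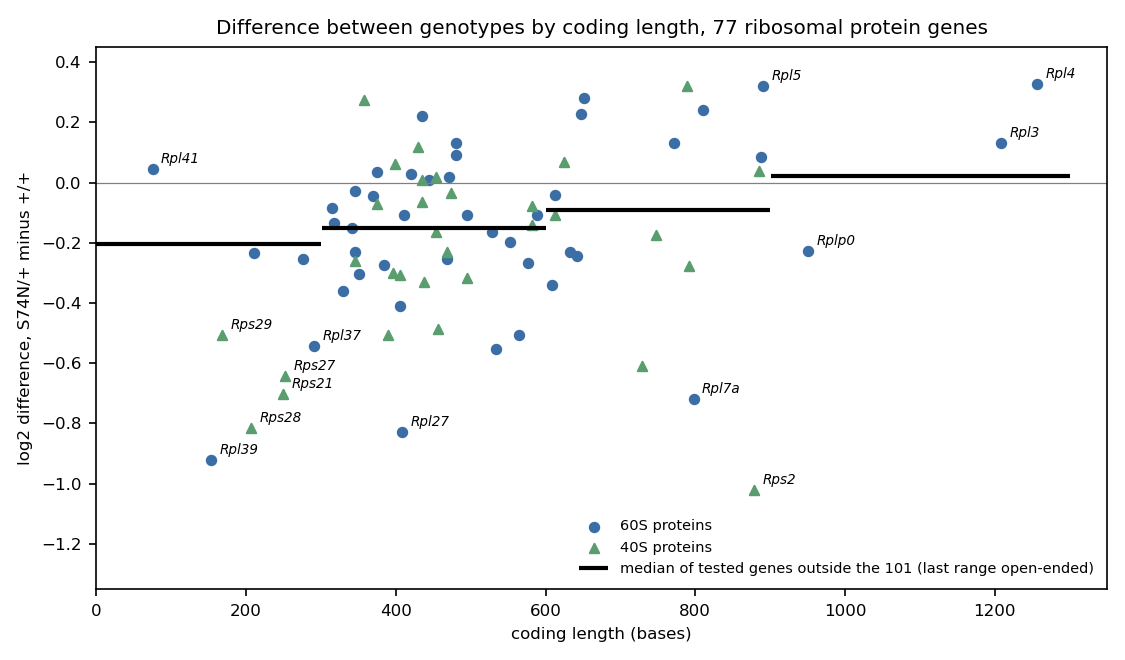
Log2 difference between Rragc S74N/+ and Rragc +/+ kidneys against coding length in bases for the 46 proteins of the 60S (circles) and 31 of the 40S (triangles); black bars are medians of the other tested genes in each length range. The short genes from Rpl39 to Rpl37 lie under the bar of their range at -0.21, Rpl41 lies above it, and Rps2 and Rpl7a are low in spite of longer coding sequences.

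Presence of the pyrimidine tract was set beside the same differences. The 27 ribosomal proteins with a tract in their window had a median log2 difference of -0.23, with 22 below 0, and the 30 without one had a median of -0.14, with 18 below 0. Without S74N/+ replicate 1 the medians were -0.20 and -0.08. Both sets spanned nearly the whole range, from -1.02 to 0.28 with the tract and from -0.83 to 0.33 without it.

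The 9 paralogues had means in +/+ kidneys from 11.1 for Rps27rt to 997 for Rps27l, and none passed the test. Rpl22l1, which can take the place of Rpl22, had counts of 50.3, 115, 90.2, 53.3 and 67.7 in +/+ kidneys and 9.33, 56.2, 55, 41.8 and 46.6 in S74N/+ kidneys. The groups overlapped, and the log2 difference of -0.98 ± 0.40 (SE; 95% interval -1.82 to -0.14; limma adjusted p = 0.137) was -0.52 without S74N/+ replicate 1. Rpl22 itself had means of 1363 ± 234 and 1127 ± 188 and a difference of -0.27 ± 0.14 (SE). Rps27l, a target of p53, had a difference of -0.24 ± 0.11 (SE) and Rps27 one of -0.64 ± 0.28 (SE). Rpl32l had counts between 8.32 and 23.4 in all kidneys and a difference of 0.56 ± 0.34 (SE; 95% interval -0.16 to 1.29). Rpl36al and Rpl36a had -0.18 and -0.13, Rpl3l and Rpl3 had 0.02 and 0.13, and Rpl7l1 had -0.14, none of them past the threshold.

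The balance between paralogue and partner was compared as the difference of their log2 values within each kidney, for 5 pairs. Rps4l and Rps4x were not among these pairs, and their balance was not tested. Rps4l had a log2 difference of -0.55 ± 0.26 (SE; limma adjusted p = 0.195), which was -0.39 without S74N/+ replicate 1, and Rps4x had one of 0.32. For Rpl22l1 against Rpl22 it was -4.21 ± 0.447 (SD, n = 5) in +/+ and -4.92 ± 0.831 in S74N/+ kidneys, with S74N/+ replicate 1 at -6.40 (exact permutation p = 0.103, adjusted over 5 pairs 0.318, two-sided). For Rpl7l1 against Rpl7 it was -1.63 ± 0.284 and -2.01 ± 0.351 (exact permutation p = 0.127, adjusted 0.318). The adjusted p-values of the remaining pairs were 0.503 for Rps27l and Rps27, and 0.778 for the others, where the smallest p that the exact permutation test allows is 0.00794. Ribosomal protein genes have many processed pseudogenes and near-identical copies in the genome, and reads that fit several places make single values uncertain. Of the 10 pseudogene rows left out of the set, none passed the limma test. Of these rows 8 lay above 0, with a median log2 difference of 0.23, or 0.19 without S74N/+ replicate 1.

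The log2 differences of the 6 elongation factors lay between -0.16 and 0.16, and none passed the test. Eef1a1, the tRNA-delivering factor, had counts of 3525, 4136, 3413, 4187 and 4187 in +/+ kidneys and 4957, 3315, 3871, 4910.0 and 4197 in S74N/+ kidneys. The groups overlapped, with S74N/+ replicate 1 highest. The log2 difference was 0.12 ± 0.13 (SE; 95% interval -0.15 to 0.39; limma adjusted p = 0.604). Eef2, the translocase, had counts of 4772, 4832, 3785, 4794 and 5004 and 5333, 4461, 4071, 4168 and 4408. S74N/+ replicate 1 was again highest, and the lowest value was a control. Its difference was -0.05 ± 0.12 (SE; 95% interval -0.29 to 0.20; limma adjusted p = 0.841). The subunits of the exchange complex, Eef1b2, Eef1d and Eef1g, had differences of -0.06 ± 0.10, 0.16 ± 0.14 and 0.08 ± 0.10 (SE), and Eefsec, the selenocysteine factor, one of -0.16 ± 0.25 (SE). For 5 of the 6 the 95% interval stayed within 0.5 of 0. Eef1a2 was not analysed here.

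Eef2k, the kinase that inhibits eEF2 and that S6 kinase restrains, was near the lower limit of measurement. It had 7.83, 5.2, 11.5, 10.5 and 10.9 counts in +/+ and 11.2, 11.6, 9.998, 3.06 and 14.6 in S74N/+ kidneys, and its 95% interval of -0.86 to 0.93 takes in changes of either direction up to these sizes. Methyltransferases that modify the elongation factors had differences from -0.49 (Eef1akmt1) to 0.19 (Eef1akmt3), and Eef1e1, a scaffold protein of tRNA synthetases, had -0.26. For Eef1akmt1 the low end was S74N/+ replicate 1, at 16.8 against 58.1 to 75.8 in the other kidneys, and without it the difference was -0.11. None of the 8 genes of this class passed the test.

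Summed over genes, the 77 ribosomal proteins took 3.87%, 3.91%, 3.62%, 3.56% and 3.35% of the nuclear-encoded counts in the +/+ kidneys and 3.56%, 3.81%, 3.37%, 3.27% and 3.33% in the S74N/+ kidneys. The groups overlapped. The means were 3.66% ± 0.230 and 3.47% ± 0.219 (SD, n = 5), a difference of -0.194 percentage points that is smaller than the pooled SD of 0.225. Of all counts, mitochondrial transcripts included, they took 2.30% ± 0.149 and 2.23% ± 0.190, a difference of -0.0617 percentage points, with S74N/+ replicate 2 above every control. Nuclear-encoded counts were used first because transcripts of the mitochondrial genome took 37.3% ± 0.916 of all counts in +/+ and 35.7% ± 1.40 in S74N/+ kidneys. The 6 elongation factors took 0.339% ± 0.0191 and 0.357% ± 0.0359, and their highest value, 0.416%, was that of S74N/+ replicate 1.

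**Figure D5:**
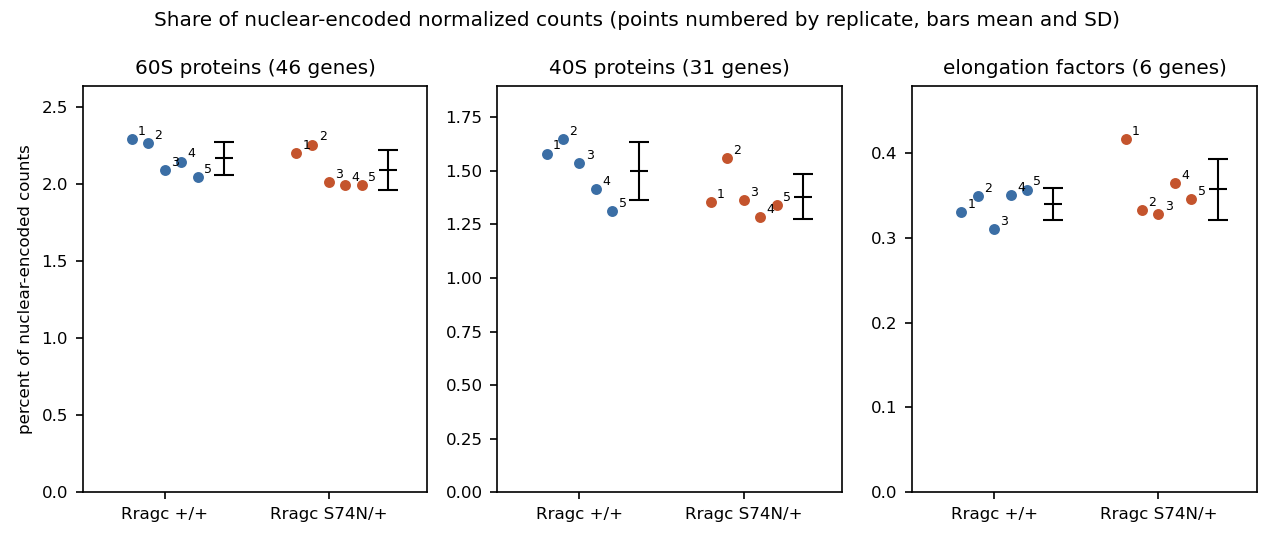
Percent of nuclear-encoded normalized counts taken by the 60S proteins, the 40S proteins and the elongation factors in each kidney, with points numbered by replicate and bars for mean and SD (n = 5); every axis starts at 0. The groups overlap in each panel, with 40S means of 1.50% in Rragc +/+ and 1.38% in Rragc S74N/+ kidneys.

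Genes around the ribosome were read from lists of 106 different genes, all of them tested, of which 5 rose and 2 fell in Rragc S74N/+ kidneys by limma. That is close to the 3.45% and 2.58% of all tested genes that rose and fell, so these counts of calls say nothing particular of the lists. The genes called are given for their own values. At an unadjusted p under 0.05 by limma, 26 of the 106 genes were higher (24.5%) and 10 lower (9.43%). Over all tested genes 12.6% were higher and 12.8% lower. No test was run over the lists, which were chosen with earlier results known. Fau and Rack1, which also supply ribosomal components, gave no call, with log2 differences of 0.40 and -0.42, which were 0.23 and -0.24 without S74N/+ replicate 1. Of 20 other TOP mRNAs, these included, Eif3a and Nap1l1 rose and Tpt1 fell. Of 15 genes between mTORC1 and translation, Eif4ebp2 fell, and of 35 initiation factors Eif2s2 and Eif3a rose. Of 46 genes of ribosome biogenesis, Ncl and Ddx21 rose, and none fell. The medians of the lists of other TOP mRNAs, of mTORC1 to translation, of initiation factors and of biogenesis ran from -0.07 between mTORC1 and translation to 0.10 over ribosome biogenesis. Several of these genes stand in more than 1 list.

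Eif4ebp2, which encodes a 4E-BP repressor of cap-dependent initiation, had counts of 433, 785, 665, 530.1 and 439.8 in +/+ and 161, 329, 394, 373 and 366 in S74N/+ kidneys. The groups did not overlap, and the extreme kidneys were the same as for Rpl39. The log2 difference was -0.84 ± 0.23 (SE; limma adjusted p = 0.0393). Tpt1, a TOP mRNA for the tumor protein Tctp, had counts of 5756, 7819, 5943, 4353 and 4332 and 1856, 4275, 3829, 3569.7 and 3658, again with separate groups and the same extreme kidneys. Its difference was -0.73 ± 0.21 (SE; limma adjusted p = 0.0485).

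Eif3a, the scaffold of the initiation factor eIF3, rose from 560.3 ± 65.5 to 890.0 ± 187 (SD, n = 5), with separate groups and a difference of 0.65 ± 0.14 (SE; limma adjusted p = 0.0154). Ncl, which encodes nucleolin, rose from 676 ± 56.5 to 937 ± 122 with separate groups and a difference of 0.47 ± 0.11 (SE; adjusted p = 0.0267 by limma). Ddx21, a nucleolar helicase, Eif2s2, a subunit of eIF2, and Nap1l1, a histone chaperone, rose as well, with log2 differences of 0.53, 0.50 and 0.46 and with 3, 4 and 4 of 5 S74N/+ kidneys above all controls. The number of list genes called depended on single kidneys: it was 0 without Rragc +/+ replicate 2, 1 without +/+ replicate 1 or S74N/+ replicate 4 or 5, 2 without +/+ replicate 4, 4 without +/+ replicate 3 and 12 without S74N/+ replicate 3. With S74N/+ replicate 1 left out, the limma adjusted p was 0.0101 for Eif3a, 0.0193 for Eif4ebp2, 0.0241 for Ncl and 0.0279 for Tpt1. It was 0.0324 for Eif2s2, 0.0334 for Nap1l1 and 0.056 for Ddx21. Some list genes not called over all kidneys passed then as well, beside 6.80% of all tested genes. The share of all tested genes called moved as well, from 2.35% without +/+ replicate 2 to 6.81% without S74N/+ replicate 3. Myc, which drives ribosome biogenesis, had a difference of 1.31 ± 0.51 (SE; limma adjusted p = 0.123), and Npm1, a nucleolar chaperone, one of 0.34 ± 0.13 (SE; adjusted p = 0.13).

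Rragc itself had counts of 115, 114, 118, 181 and 204 in +/+ and 160.4, 90.1, 135, 123 and 109.8 in S74N/+ kidneys. The groups overlapped, and the log2 difference was -0.22 ± 0.20 (SE; limma adjusted p = 0.508). The reads come from the 3′ end of the mRNA, so they do not check the allele.

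Markers of other cells moved with genotype beside these results. Of 14 myeloid markers, Ptprc, Lyz2, C1qb, Cd74 and S100a9 rose, and the summed counts of the 14 ran from 1468 to 1972 in +/+ and from 2694 to 3541 in S74N/+ kidneys. Cd74 alone had means of 910 ± 171 and 1864 ± 245 (SD, n = 5). Of the 14, 12 lay above 0, and C1qc (-0.48) and Cd68 (-0.34) lay below 0 without passing. Of 7 fibroblast markers 3 rose, and the summed counts ran from 809.5 to 1415 and from 1314 to 2202. All 4 markers of the distal convoluted tubule fell, and their summed counts ran from 4477 to 5597 in +/+ and from 1365 to 2129.6 in S74N/+ kidneys. Of 4 markers of the thick ascending limb Umod and Egf fell, the latter with a log2 difference of -1.05. Slc12a1 (0.04) and Cldn16 (0.44) lay above 0 without passing. The summed counts of the 4 ran from 10468 to 14515 in +/+ and from 4903 to 10622 in S74N/+ kidneys. A single marker fell in each of 3 further lists, Slc5a2 of the proximal tubule (-1.05), Slc4a1 of the collecting duct (-1.19) and Plvap of the endothelium (-0.93), and no podocyte marker passed. Called or not, 3 of 5 collecting duct and 5 of 7 endothelial markers lay above 0, and 6 of 8 proximal tubule markers lay below 0. Of 8 T cell markers 4 could be tested and Trac rose, with sums from 18.9 to 53.3 and from 71.3 to 99.98. Of 9 markers of B and plasma cells 6 could be tested and none passed, with sums from 994 to 3199 and from 1739.6 to 6974. The part of these cells in the levels of ribosomal protein mRNA was not tested.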

How the data were processed

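RNA from 10 whole kidneys, 5 per genotype, entered oligo-dT primed 3′ libraries per the labels. The submitters' processing notes name FastQC 0.11.7, TopHat2 2.0.10, Bowtie 1.0.0, SAMtools 0.1.19 and HTSeq 0.6.1 with build GRCm39. The deposited values are a signal of the form of normalized counts: the authors divided read counts per gene by a size factor per sample. Reads came out whole in 8 columns (100% of values, tolerance 0.1 read).

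Genes had to reach a normalized count of 5 in 5 or more kidneys to be tested, and 63 genes did not. Log2(value + 1), which understates changes of low genes, was modelled on genotype alone in limma 3.58.1 (R 4.3.3), with an eBayes trend and two-sided Benjamini-Hochberg adjustment over all tested genes. edgeR 4.0.16 and DESeq2 1.42.0 were run on the whole reads of 8 samples, 4 per genotype, and the limma fit was tested on simulated data. The study gives 5 mice per genotype, and the p-values measure the spread between their kidneys. Replicate numbers follow the deposit order.

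The members, gene lists and most alternatives were chosen with earlier results of these data known. Named by rule were genes past the threshold, Rps6, the Eef1 and Eef2 genes, the 5 largest differences each way, paralogues with partners, list genes past the threshold and Rragc; all other named genes were chosen after their values were seen. Rpl32l and Rpl37rt were put among the paralogues after the symbols were seen. Coding lengths came from GENCODE and start windows from RefSeq (GRCm38.p6). Intervals of shares cover counting error only. A gene of the lists is counted in their totals and not reported by name here.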

Additional observations from a re-analysis of the deposited data

Results flagged for a closer look

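In each group of 5 kidneys, the gap of the highest or lowest value to its neighbour was set against the range of the group. Over 76 groups searched, 8 stood out, where chance gives about 1 in 20, or 3.8. Of these, 3 came from Rragc S74N/+ replicate 1, which was low for Rps28 (342 normalized counts, the others 774 to 904), for Rpl36al (132, the others 298 to 324) and for Eif4ebp2 (161, the others 329 to 394). In Rragc S74N/+ replicate 2, the 40S proteins took a high share of nuclear-encoded counts, 1.56%, beside 1.28% to 1.36%. In the Rragc +/+ group, replicate 1 was high for Eef1b2 (1166, the others 977 to 1022) and low for Rpl7l1 (210.3, the others 279 to 291). Replicate 3 was low for Eef2 (3785, the others 4773 to 5004), and replicate 5 was high for Ddx21 (259, the others 164 to 187).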

How the results depend on the processing

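The kidneys came from 5 mice per genotype and the labels give no pairing between them, so no paired analysis was run. The count of genes called lower, 1 of 101, became 7 with DESeq2, 3 with a pseudocount of 5, 2 with edgeR or limma on 8 samples, with a minimum mean of 50 or with equal 75th percentiles, and 0 with eBayes without trend, with equal totals, at an adjusted p under 0.01 and in the samples numbered under or over 200. Leaving out 1 kidney gave 0 to 4. The count called higher, 0 (4 at an unadjusted p under 0.05 by limma), became 2 with DESeq2 and 0 to 1 with 1 kidney left out. Robust eBayes called Rps18 in place of Rpl39. The 7 list genes called became 19 with DESeq2, 12 with edgeR or limma on 8 samples, 1 without both Rragc S74N/+ replicate 1 and Rragc +/+ replicate 2, 0 with eBayes without trend or under 200, and 0 to 12 with 1 kidney left out. The share of all tested genes called moved too, from 6.03% to 10.6% with DESeq2, 6.43% with edgeR, 6.30% with limma on 8 samples and 3.77% without both kidneys. That share was 6.51% with a pseudocount of 5, 8.72% with a minimum mean of 50, 6.32% with equal 75th percentiles and 7.12% with equal totals. With eBayes without trend it was 2.95%, with robust eBayes 6.36%, under 200 0.35% and over 200 4.66%. With 1 kidney left out it ran from 2.35% to 6.81%. The median of the ribosomal proteins stayed between -0.21 and -0.07, and their share of nuclear-encoded counts stayed lower in S74N/+ kidneys by 0.133 to 0.280 percentage points with 1 kidney left out.

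Small differences changed sign, none of them called. Those in samples numbered over 200 were Rps6 (0.19), Eef1d (-0.17), Eef2k (-0.56), Rpl36al (0.23), Rpl36a (0.15) and Rpl3 (-0.10). Under 200 they were Eef2 (0.050), Rpl3l (-0.24) and Rragc (0.11). With equal totals Eef1b2 (0.019) and Eef2 (0.032) did so. Eef2 was 0.014 with DESeq2, 0.025 with edgeR and 0.016 with limma on 8 samples, and Rpl3l was -0.043, -0.033 and -0.028 there. Without both Rragc S74N/+ replicate 1 and Rragc +/+ replicate 2, Eef2k was -0.20, Rpl36al 0.094 and Rpl36a 0.078. With 1 kidney left out, Rps6 ran from -0.26 to 0.037, Eef2k from -0.13 to 0.37, Rpl36al from -0.26 to 0.066, Rpl36a from -0.21 to 0.0090 and Rpl3l from -0.18 to 0.17. The cause was not tested. Genes with few counts, such as Eef2k and Rpl3l, are limited by depth.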
